A study of Drosophila melanogaster with 7 samples.

Results

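Glutamate is the transmitter of the larval motor neurons of Drosophila melanogaster and of many interneurons, and 10 genes for its vesicular packaging and its reception were described here across 7 cultures of primary larval neurons. They were taken by their FlyBase symbols from the 17753 genes of the count table and are VGlut, GluRIA, GluRIB, GluRIIA, GluRIIB, Nmdar1, Nmdar2, mGluR, GluClalpha and KaiR1D. All 7 cultures belong to a single untreated control group of the genotype w1118. For each, the nervous systems of 3 larvae of the third instar were dissociated, and the cells divided and differentiated for 7 days in vitro, so that the cultures mix neurons with other cells of the larval nervous system. No other genotype or treatment was compared, and every statement below concerns the level of a gene in these cultures and its spread between them. The study describes the samples as biological replicates, while the labels do not say whether they come from separate dissections, and p-values measure only the spread between these samples.

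In flies, VGlut fills synaptic vesicles with glutamate at the presynaptic terminal. Released glutamate opens cation channels of the AMPA, kainate and NMDA classes, opens a chloride channel that lowers excitability, and acts on a G-protein-coupled receptor. The synapse on the body-wall muscle uses its own channels, in which the shared subunits GluRIIC, GluRIID and GluRIIE combine with either GluRIIA or GluRIIB, while the neurons of the central nervous system use the other classes.

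The libraries, named CC_1 to CC_7 in the count table, held between 21178515 and 33891136 counts. Levels are given in CPM, the counts of a gene per 1000000 counts of its library. A gene was taken as detected where each of the libraries held 10 or more of its counts. The 6 markers of neurons were all detected, with a summed level of 5201 to 6986 CPM, of which futsch, with 23308 bases of exon, held 3421 to 4761 CPM and elav 620 to 769 CPM. The 6 markers of glia were also all detected and summed to 94.6 to 151 CPM, with repo at 16.6 to 21.7 CPM. Library CC_1 stood apart from the rest: the 13 photoreceptor genes summed to 1403 CPM in it and to 118 to 358 CPM in the others, and the 10 muscle markers to 355 CPM in it and to 118 to 184 CPM in the others. Whether cells other than neurons in CC_1 have a part in any level below was not tested, and means without CC_1 are given beside the members that were highest in it.

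Of the 10 genes, 8 were detected, or 80%, beside 53.4% of all genes listed. The 2 that fell short were the muscle-type subunits GluRIIA and GluRIIB. The median level of the 8 detected genes was 122 CPM, beside 24.1 CPM over the 9476 detected genes, without adjustment for gene length. In bulk RNA, fewer cells of a type and less RNA per cell cannot be told apart.

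**Figure D1:**
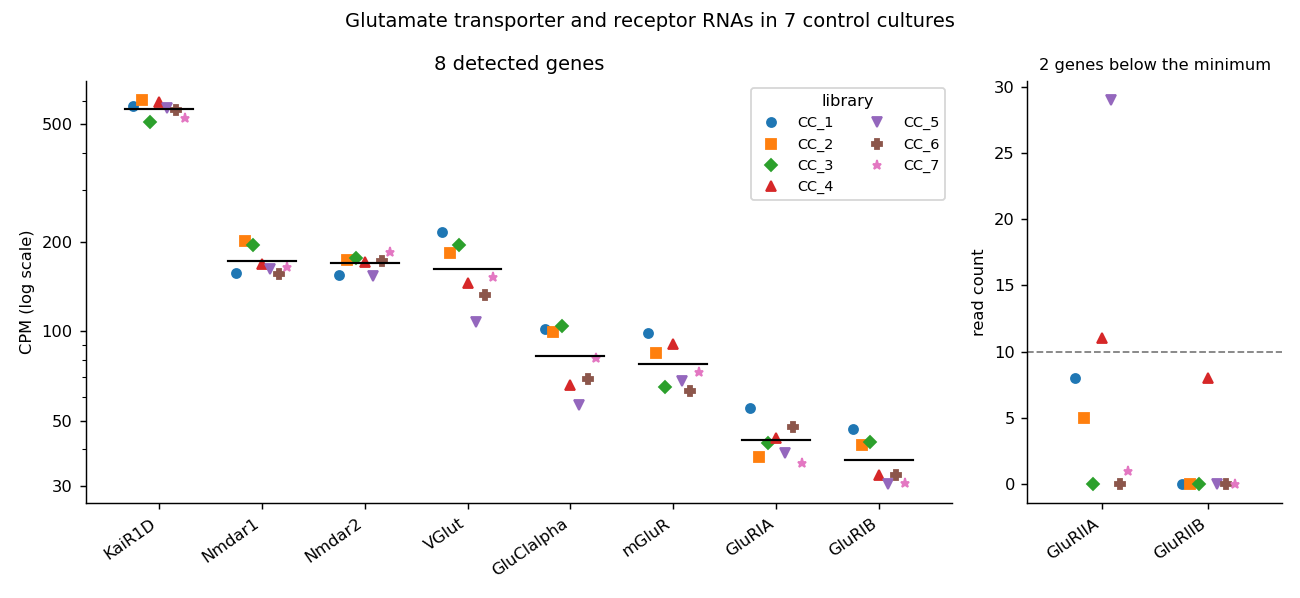
Level of the 10 genes in each of the 7 control cultures, in CPM on a log axis (left, the 8 detected genes) and as counts (right, GluRIIA and GluRIIB). Each point is a library, the horizontal bar is the mean, and the dashed line on the right marks the detection minimum of 10 counts. KaiR1D lay at 510 CPM or above in each library, and GluRIIB had 8 counts in CC_4 and 0 in the others.

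The 10 genes lie on 5 chromosome arms of the dm6 assembly, 3 each on 2L and 3R, with coordinates from the BDGP6.54 annotation. VGlut (FBgn0031424) is on the plus strand of 2L from 2400295 to 2410662, with 2 annotated transcripts and a single 3′ UTR length of 2964 bases. KaiR1D (FBgn0038837) is on the minus strand of 3R from 20860187 to 20866231. Because the counts were made per gene over the annotated exons, they do not separate the transcripts of a gene, which number from 1 in GluRIA, GluRIIA, GluRIIB, Nmdar1 and KaiR1D to 11 in GluClalpha.

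GluClalpha (FBgn0024963, 3R from 19730715 to 19775231, plus strand) has 3′ UTRs of 38 to 3633 bases. Nmdar2 (FBgn0053513, X from 1483625 to 1507809, minus strand) has 3′ UTRs of 323 to 2924 bases. In mGluR (FBgn0019985, chromosome 4 from 936819 to 949441, plus strand) they span 205 to 2821 bases, and in GluRIB (FBgn0264000, 3L from 9251978 to 9288522, plus strand) 1133 to 3141 bases. The neuronal members thus include 4 genes with several annotated 3′ UTR lengths, whose end positions were not compared. The study sequenced these cultures with 3′ UTR isoforms in view, which gene counts cannot resolve. Nmdar1 (FBgn0010399, 3R from 5508842 to 5523328, minus strand) and GluRIA (FBgn0004619, 3L from 6624032 to 6635059, plus strand) have a single transcript each.

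GluRIIA (FBgn0004620) and GluRIIB (FBgn0020429) are neighbours on the plus strand of 2L, from 5555072 to 5558994 and from 5559342 to 5563502, and are separated by 347 bases. GluRIIA shares 66 exonic bases with CG14017 on its own strand, a gene with 0 to 4 counts per library. VGlut shares 39 exonic bases with CG18641 on the opposite strand, a gene with 5 to 39 counts, and mGluR shares 57 exonic bases with an INE-1 transposon. No source used here gives the strand setting of the counting, and reads in these stretches cannot be assigned with certainty.

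VGlut averaged 162 ± 37.9 CPM (SD, n = 7), ranking 1252 from the top among all genes and above 86.8% of the detected ones in CPM, and above 74.6% of them per kilobase of exon. Its levels were 216, 184, 195, 145, 108, 133 and 152 CPM in CC_1 to CC_7. The 3 libraries CC_1, CC_2 and CC_3 were above the other 4, and the highest was 2.00 times the lowest, CC_5. Without CC_1 the mean was 153 ± 32.4 CPM.

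VGlut varied more than most genes of its level. Its coefficient of variation (CV, the SD as a percentage of the mean) was 23.4%, above 98.0% of the 1076 detected genes whose mean level was within 1.5-fold of its own, for which the median was 8.21%. Among all detected genes, which include many at low level with wide counting error, 73.2% had a smaller CV.

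The level of VGlut was compared with that of VAChT, which loads acetylcholine, the main excitatory transmitter of the fly brain, into vesicles. VAChT had 169, 157, 171, 91.5, 82.6, 88.7 and 116 CPM in CC_1 to CC_7, again with CC_1, CC_2 and CC_3 above the other 4. Across the 7 libraries log2(CPM + 1) of the 2 genes gave a Pearson r of 0.949 (exact permutation p = 0.000397, adjusted p = 0.00278 over 7 relations) and a Spearman rho of 0.964 (exact permutation p = 0.00278, adjusted p = 0.0194). When CC_1 and CC_5, the libraries most distant from the median of VGlut, were dropped r was 0.981, and without CC_1 it was 0.938. The libraries may be read as a higher set of 3 and a lower set of 4 for VAChT, both too small for an r of their own.

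**Figure D2:**
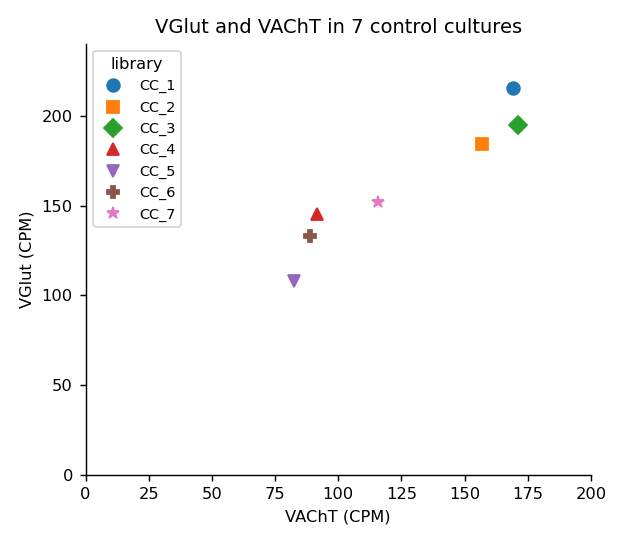
VGlut (vertical axis) and VAChT (horizontal axis) in the 7 control cultures, both in CPM on linear axes, with 1 symbol per library. CC_1, CC_2 and CC_3 are the 3 highest for both genes, and r of log2(CPM + 1) over all 7 was 0.949.

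VGlut was also compared with 2 scores, each the mean log2(CPM + 1) of a marker list. With the score of 7 genes taken as motor neuron markers, r was 0.893 (exact permutation p = 0.00933, adjusted p = 0.0218) and rho was 0.893 (exact permutation p = 0.0123, adjusted p = 0.0431). Whether these genes mark motor neurons alone in such mixed cultures was not tested. Dropping the same libraries, CC_1 and CC_5, gave 0.907 over 5 libraries, with an exact permutation p of 0.05. The motor neuron score was 4.76 to 4.91 in CC_1, CC_2 and CC_3 and 4.42 to 4.57 in CC_4 to CC_7. As with VAChT, the libraries may be read as a higher and a lower set, both too small for an r of their own. With the score of 6 general neuron markers r was 0.827 (exact permutation p = 0.0131, adjusted p = 0.0229), but rho was 0.679 (exact permutation p = 0.110, adjusted p = 0.192), and the relation did not pass without CC_5 (r = 0.649, exact permutation p = 0.182), the library lowest in that score and in VGlut. Among these markers fne varied most, from 63.8 CPM in CC_5 to 392 CPM in CC_1, with a CV of 42.4%. The CVs of the others ran from 6.52% (Syt1) to 12.3% (futsch). How far fne alone carries the relation was not tested.

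The order of the libraries seen in VGlut recurred in part of the other genes. The 3 highest libraries were CC_1, CC_2 and CC_3 in 3 of the 8 detected members, VGlut, GluRIB and GluClalpha, beside 6.15% of all detected genes. This arrangement was noticed after the values had been seen, and no test was attached to it. It was found in 5 of 7 markers of other transmitters (VAChT, ChAT, Gad1, Vmat and ple), in 3 of 7 motor neuron markers, in 1 of 6 general neuron markers, in 1 of 6 glia markers, in 1 of 9 muscle markers and in none of the 3 other ionotropic receptor subunits that were detected. Photoreceptor genes, which were highest in CC_1, showed it in 3 of 12. Auxiliary and scaffold genes showed it in 1 of 5 (Neto), and genes of glutamate uptake and metabolism in 1 of 9 (Eaat2). The part of neuronal subtype make-up or of other cells in this arrangement was not tested.

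KaiR1D, a kainate-type subunit known from the motor neuron terminal, where it adjusts transmitter release, was the most abundant of the 10 genes in every library. Its levels were 576, 602, 510, 593, 566, 559 and 526 CPM in CC_1 to CC_7, with a mean of 562 ± 33.7 CPM (SD, n = 7). It ranked 215 from the top among all genes, above 97.7% of the detected ones in CPM and above 97.0% per kilobase of exon. The libraries lay close together, in an order that did not follow that of VGlut, with CC_2 and CC_4 highest and CC_3 lowest. The CV of 5.99% was above that of 17.6% of the 312 detected genes of similar level, whose median was 8.16%.

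Because longer transcripts collect more reads, the order of the genes and the shares of subunits were taken per kilobase of summed exon length. On that scale KaiR1D had 156 ± 9.33 CPM per kb and made up 58.1 ± 1.92% (SD, n = 7) of the summed level of the 14 ionotropic glutamate receptor subunits, with 54.1 to 59.7% in single libraries. By coding length in place of exon length its share was 52.0%. Nmdar1 followed with 15.4%, then the kainate-type CG11155 with 9.13% and Nmdar2 with 7.90%, while GluRIA had 4.21% and GluRIB 1.91%. The 5 muscle-type subunits held 0.0827% (GluRIIC), 0.0707% (GluRIID), 0.0344% (GluRIIE), 0.0316% (GluRIIA) and 0.00552% (GluRIIB).

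Nmdar1 and Nmdar2 encode the 2 subunits of the fly NMDA receptor, a channel that needs both glutamate and depolarisation to open and that serves learning. Nmdar1 had 157, 201, 196, 169, 163, 156 and 165 CPM in CC_1 to CC_7, a mean of 172 ± 18.4 CPM (SD, n = 7). Nmdar2 had 155, 174, 177, 171, 154, 173 and 185 CPM, a mean of 170 ± 11.5 CPM. CC_2 and CC_3 were the highest libraries for Nmdar1 and CC_7 and CC_3 for Nmdar2, and CC_1 was the second-lowest library for both.

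Per kilobase of exon Nmdar1 exceeded Nmdar2 in all 7 libraries. The log2 ratio was 0.96 ± 0.14 (SD, n = 7, range 0.78 to 1.16), a 1.95-fold difference with an exact sign-flip permutation p of 0.0156, the smallest that 7 libraries allow, and an adjusted p of 0.0156 over 2 ratios. This difference rests on the length used: by coding length the log2 ratio was 0.14 (exact permutation p = 0.0625), and without length adjustment it was 0.02 (exact permutation p = 0.734), where the CPM ratio ran from 0.890 to 1.16. Nmdar2 has 8036 bases of annotated exon, 3249 of them coding at most, against 4170 and 2991 in Nmdar1. Across libraries the levels of both genes gave r = 0.384 (exact permutation p = 0.396, adjusted p = 0.463) and rho = 0.464 (exact permutation p = 0.302, adjusted p = 0.353), so no relation was detectable over 7 libraries.

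GluRIA and GluRIB encode AMPA-like subunits of central synapses. GluRIA had 55.0, 37.7, 42.1, 43.6, 38.7, 47.5 and 36.0 CPM in CC_1 to CC_7, a mean of 43.0 ± 6.58 CPM (SD, n = 7) and of 40.9 ± 4.27 CPM without CC_1. GluRIB had 46.9, 41.5, 42.5, 32.8, 30.6, 32.9 and 30.7 CPM, a mean of 36.8 ± 6.63 CPM and of 35.1 ± 5.39 CPM without CC_1. CC_1 was the highest library for both, but the next highest were CC_6 for GluRIA and CC_3 for GluRIB.

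Per kilobase of exon GluRIA exceeded GluRIB in all 7 libraries, with a log2 ratio of 1.13 ± 0.23 (SD, n = 7, range 0.77 to 1.43) or 2.18-fold (exact sign-flip permutation p = 0.0156, adjusted p = 0.0156 over 2 ratios). The size of this difference rests on the length used, as GluRIB has 7186 bases of annotated exon against 3810 in GluRIA. By coding length the log2 ratio was 0.48 (exact permutation p = 0.0156). Without length adjustment it was 0.23 (exact permutation p = 0.0625), with CPM ratios of 0.910 to 1.45. Across libraries their levels gave r = 0.509 (exact permutation p = 0.245, adjusted p = 0.344) and rho = 0.536 (exact permutation p = 0.236, adjusted p = 0.330). Without CC_1 r was 0.0318, and without CC_1 and CC_7, the libraries most distant from the median of GluRIA, it was -0.291.

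GluClalpha, the glutamate-gated chloride channel through which glutamate inhibits and the target of the drug ivermectin, varied as widely as VGlut. It had 101, 99.7, 104, 65.7, 56.3, 68.8 and 81.0 CPM in CC_1 to CC_7, with a mean of 82.4 ± 19.5 CPM (SD, n = 7) and of 79.3 ± 19.3 CPM without CC_1. CC_1, CC_2 and CC_3 were again above the other 4, and the highest level was 1.85 times the lowest, in CC_5. Its CV of 23.6% was above that of 97.3% of the 1484 detected genes of similar level, for which the median was 9.32%. With the neuron score r was 0.845 (exact permutation p = 0.00536, adjusted p = 0.0188), with rho at 0.679 (exact permutation p = 0.110, adjusted p = 0.192), and r was 0.840 without CC_1. The most variable marker of that score, fne, was also lowest in CC_5, and its part in this relation was not tested.

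mGluR, the metabotropic receptor, which lowers transmitter release through an inhibitory G protein, had 99.0, 84.7, 64.9, 90.9, 67.8, 62.8 and 73.1 CPM in CC_1 to CC_7. The mean was 77.6 ± 14.1 CPM (SD, n = 7) and 74.0 ± 11.4 CPM without CC_1. CC_1, CC_4 and CC_2 were highest, an order shared with neither VGlut nor GluClalpha. The CV of 18.1% was above that of 93.3% of the 1485 detected genes of similar level. With the neuron score no relation was detectable (r = 0.292, exact permutation p = 0.599, adjusted p = 0.599; rho = 0.286, exact permutation p = 0.556, adjusted p = 0.556).

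**Figure D3:**
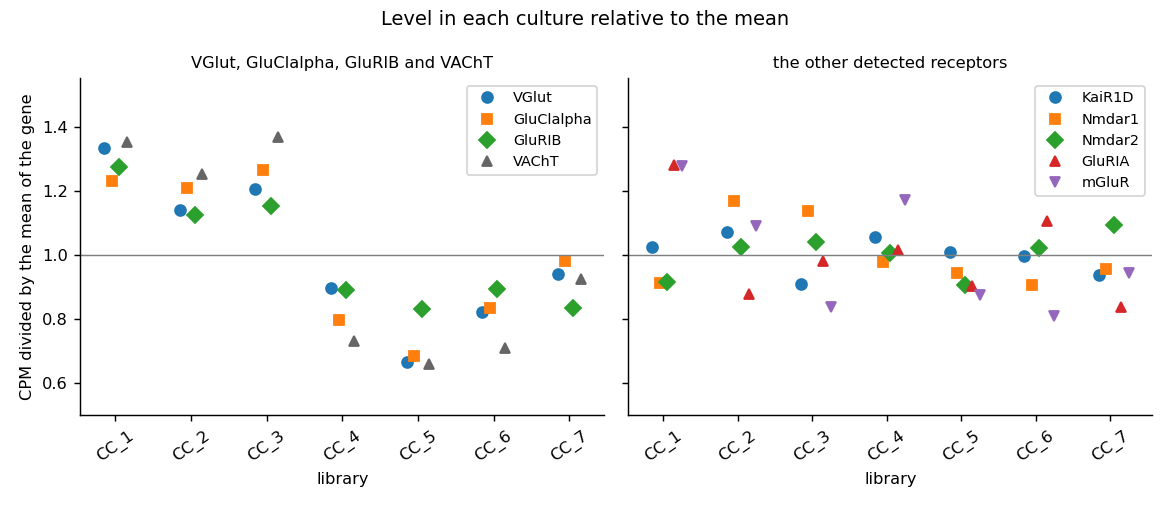
Level of each detected member and of VAChT in the 7 control cultures, as CPM divided by the mean of that gene over the cultures, with the libraries along the horizontal axis and 1 symbol per gene. The left panel holds the genes named in its title and the right panel the other receptors. VGlut, GluRIB, GluClalpha and VAChT were highest in CC_1, CC_2 and CC_3, and KaiR1D and Nmdar2 stayed closest to their means.

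GluRIIA and GluRIIB, the alternative subunits that set the properties of the muscle receptor, were near the limit of the counts. GluRIIA had 8, 5, 0, 11, 29, 0 and 1 counts in CC_1 to CC_7. Pooled over the 7 libraries this is 54 counts or 0.284 CPM, with an exact 95% Poisson interval of 0.214 to 0.371 CPM that covers counting error only. CC_5 was highest at 1.02 CPM (0.681 to 1.46), followed by CC_4 at 0.437 CPM (0.218 to 0.783), and CC_3 and CC_6 had 0 counts, which allow levels of up to 0.105 and 0.142 CPM, taken as 3 counts of the library total.

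GluRIIB had 8 counts in CC_4, or 0.318 CPM (0.137 to 0.627), and 0 counts in the other 6 libraries, which by the same limit of 3 counts allow up to 0.0885 to 0.142 CPM. Pooled, the level was 0.0421 CPM (0.0182 to 0.0830). No ratio of the 2 subunits and no correlation was computed, since GluRIIB was at 0 in 6 libraries and GluRIIA was below 10 counts in 5.

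The 3 shared subunits of the muscle receptor were also below the minimum. GluRIIC had 7, 24, 17, 55, 22, 5 and 0 counts in CC_1 to CC_7, GluRIID had 6 to 27 counts and GluRIIE 0 to 20. CC_4 was the library with the highest GluRIIB, GluRIIC (2.19 CPM) and GluRIID (1.07 CPM) and the second-highest GluRIIA, whereas GluRIIE was 0.239 CPM in CC_4 and highest in CC_7 at 0.700 CPM. The summed level of the muscle markers was 118 CPM in CC_4, the lowest of all libraries, and 184 CPM in CC_5, where GluRIIA was highest. Of these sums the marker bt alone held 73.6 CPM in CC_4 and 101 CPM in CC_5, beside 111 CPM in CC_1. In CC_1, with a muscle sum of 355 CPM and the myosin heavy chain Mhc at 70.7 CPM against 8.55 to 18.0 CPM in the others, GluRIIA had 8 counts and GluRIIB 0.

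On the scale of exon kilobases the 10 genes were ordered KaiR1D (156 ± 9.33 CPM per kb), Nmdar1 (41.4 ± 4.42), VGlut (28.3 ± 6.63), Nmdar2 (21.1 ± 1.43), GluClalpha (12.4 ± 2.94), mGluR (12.2 ± 2.21), GluRIA (11.3 ± 1.73), GluRIB (5.13 ± 0.923), GluRIIA (0.0851) and GluRIIB (0.0154), as mean ± SD over 7 libraries where an SD is given. Neighbours were called apart when the difference had the same sign in all 7 libraries and a mean above its SD. KaiR1D was above Nmdar1 by 114 ± 10.4 CPM per kb, Nmdar1 above VGlut by 13.0 ± 6.25, Nmdar2 above GluClalpha by 8.69 ± 2.99 and GluRIA above GluRIB by 6.15 ± 1.46, each in 7 of 7 libraries. The differences within 3 other pairs were not apart: VGlut was above Nmdar2 in 6 of 7 libraries (7.20 ± 6.71), GluClalpha above mGluR in 4 of 7 (0.214 ± 3.10) and mGluR above GluRIA in 5 of 7 (0.942 ± 2.12).

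By coding length the order of the upper genes changed. KaiR1D stayed first at 219 CPM per coding kb, but VGlut came next at 85.4, ahead of GluClalpha at 59.4, Nmdar1 at 57.7 and Nmdar2 at 52.2. VGlut and GluClalpha have short coding sequences, of 1896 and 1389 bases, within 5716 and 6633 bases of annotated exon. The place of these genes relative to the NMDA subunits therefore depends on how much of the annotated untranslated sequence the transcripts in these cells carry, which was not measured.

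**Figure D4:**
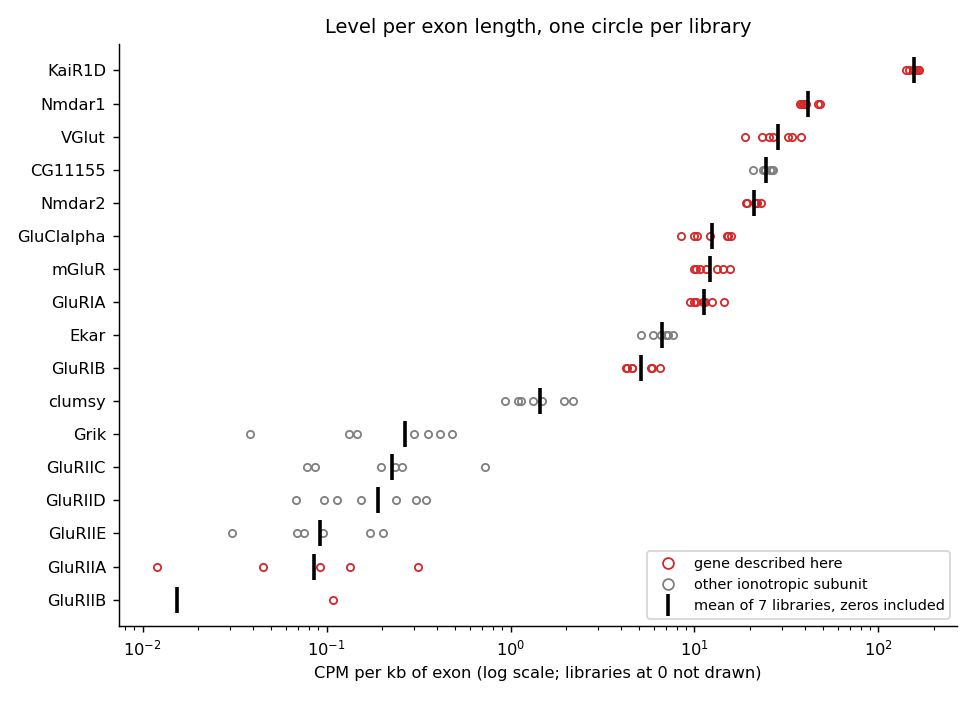
Level per kilobase of exon of the members and of the other ionotropic glutamate receptor subunits, in CPM per kb on a log axis. Circles are the 7 control cultures, with libraries at 0 not drawn, and the vertical bars are means that include zeros, so that KaiR1D stands at 156 CPM per kb and the muscle-type subunits at the low end.

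Among the 7 further ionotropic subunits, 3 were detected. CG11155, a kainate-type subunit, had 157 ± 13.0 CPM (SD, n = 7), Ekar, a kainate-type subunit known from photoreceptors, 19.7 ± 2.54 CPM, and clumsy, also of the kainate class, 4.95 ± 1.60 CPM. Grik, of the same class, had 4 to 45 counts and was above the minimum in 6 of the 7 libraries.

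All 5 genes for auxiliary and scaffold proteins were detected. Neto, the auxiliary subunit that the muscle receptor needs to cluster, had 26.9 ± 9.77 CPM. Its levels were 37.4, 34.4 and 33.8 CPM in CC_1, CC_2 and CC_3, against 14.3 to 31.8 CPM in the others. The synaptic scaffold dlg1, the fly relative of PSD-95, had 281 ± 19.5 CPM, CASK 411 ± 32.2 CPM, Grip 116 ± 13.9 CPM and homer 105 ± 3.82 CPM (SD, n = 7 for each).

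All 9 genes of glutamate uptake and metabolism were detected as well. Eaat1, the glial transporter that clears glutamate from the synapse, had 28.1 ± 5.41 CPM (SD, n = 7). Eaat2, a relative that carries aspartate and taurine, had 185, 156, 163, 90.9, 88.7, 112 and 129 CPM in CC_1 to CC_7, the only one of the 9 in which CC_1, CC_2 and CC_3 were above the other 4. The enzyme Gdh, which oxidises glutamate, had 249 ± 18.2 CPM. The cytosolic glutamine synthetase Gs2, a glial enzyme, had 27.0 ± 12.1 CPM, a wide spread for its mean.

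The members differed in how far the cultures agreed. The median CV of the 8 detected members was 16.7%, beside 14.1% over all detected genes. Nmdar2 (6.77%) and KaiR1D (5.99%) had a CV below the median of genes of similar level, and 6 members had one above it, from Nmdar1 (10.7%) and GluRIA (15.3%) to VGlut and GluClalpha. For GluRIA this rested on CC_1, without which 47.1% of genes of similar level had a smaller CV, whereas for VGlut the share was 97.5 to 98.5% when any library was left out. For Nmdar2 the share was 34.4% by library totals, but 47.3% by TMM factors and 49.0% by DESeq2 size factors, close to the median. For KaiR1D it ran from 7.52 to 36.5% with each library left out. A test of the gap between the most extreme library and the next set a library apart in 0 of the 8, beside 6.72% of all detected genes. CC_1 was the highest library in 4 of the 8, VGlut, GluRIA, GluRIB and mGluR, and in 23.1% of all detected genes.

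**Figure D5:**
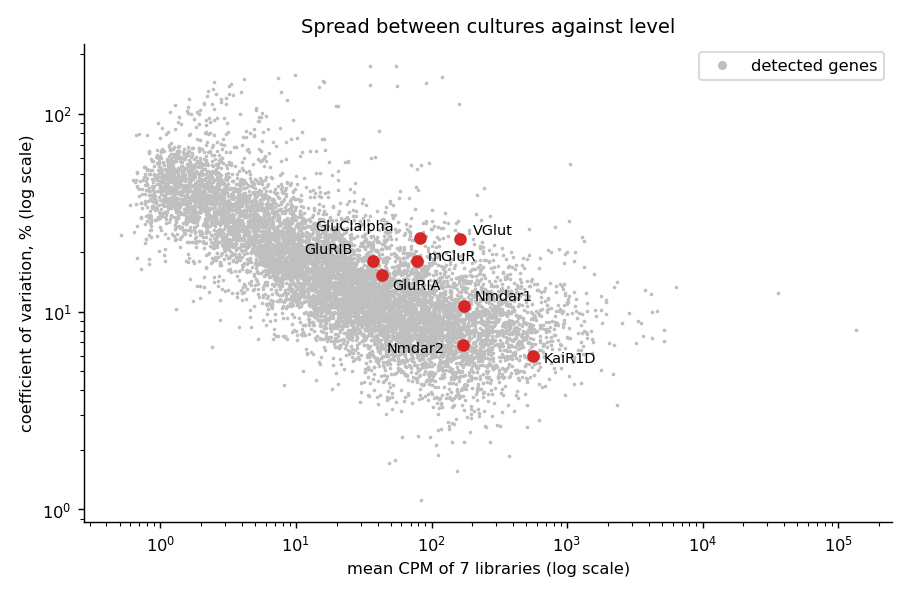
Coefficient of variation over the 7 control cultures (vertical axis, percent, log scale) against mean level (horizontal axis, CPM on a log scale) for all detected genes in grey, with the 8 detected members marked and named. VGlut (23.4%) and GluClalpha (23.6%) lie above most genes of their level, and KaiR1D (5.99%) lies low at the right.

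For each detected member the 3 genes with the most similar pattern were taken by Pearson r of log2(CPM + 1) over the 7 libraries, among 9476 genes, as a description of likeness. With 7 libraries high values are common: 163 other genes reached r of 0.9 or more with VGlut and 188 with GluClalpha, against 15 with KaiR1D. VGlut was closest to CG12194 (0.993), the transcription factor acj6 (0.990) and CG42346 (0.984). GluClalpha was closest to gprs (0.987), the transcription factor pros (0.983) and the cadherin CadN (0.983).

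The remaining members had fewer close neighbours. Nmdar1 was closest to the neuropeptide gene Dh31 (0.986), dpr16 (0.968) and the active-zone gene brp (0.962), and Nmdar2 to sd (0.977), Eip75B (0.969) and lin (0.957). GluRIA was nearest to Vha100-1 (0.985), a subunit of the proton pump that drives vesicle filling, then mRpS21 (0.967) and lncRNA:CR43849 (0.958). GluRIB was nearest to CG13739 (0.991), CG6154 (0.988) and CG14322 (0.984). For mGluR these were lncRNA:CR32658 (0.967), the muscle myosin light chain Mlc1 (0.953) and CG9067 (0.948), and for KaiR1D CG1143 (0.960), CG8319 (0.940) and CG5934 (0.937).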

How the data were processed

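RNA of 7 control cultures was sequenced. The labels describe stranded, ribosomal-RNA-depleted total RNA, while the methods of the study give a stranded mRNA kit. Whole-number counts per gene, made by the authors with featureCounts and not normalized, were deposited. The submitters' processing notes name the build dm6, whereas the aligner, annotation and strand setting were not given in the sources used here. Columns were matched to the group only, and 8 columns of per-sample values that match no sample used here were left out.

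CPM were computed by library total, from 21178515 to 33891136 counts, and log2 values carry a pseudocount of 1 CPM. Exon lengths and coordinates came from BDGP6.54 (Ensembl release 115), which matched 17626 of 17753 identifiers. All 21 library pairs differed beyond sampling noise (chi-square per degree of freedom 18.7 to 74.1), so none was a duplicate. For correlations all 5040 pairings were permuted (exact, two-sided), and for log2 ratios all 128 sign flips, with Benjamini-Hochberg adjustment over the 7 correlations and 2 ratios computed of 10 and 3 planned. A library was called apart when its gap exceeded 0.568 of the range. The members and gene lists were chosen with earlier results of these data known. Named are all members, genes of the lists, and the 3 genes nearest to each detected member. The values of 1 listed gene are not reported here. The pattern of the 3 highest libraries and the comparison of CV within 1.5-fold of level were added after values had been seen. Alternatives were TMM factors, DESeq2 size factors, totals without Arc1, other limits and pseudocounts, coding length and each library left out. The statistics were tested on simulated data. For the permutation tests these were independent random values, so sets of libraries that resemble each other were not covered. Software was scipy 1.17.1, matplotlib 3.10.9, pandas 2.3.3 and numpy 2.4.6 under Python 3.11.15, plus DESeq2 1.42.0 and edgeR 4.0.16 under R 4.3.3.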

Additional observations from a re-analysis of the deposited data

Results flagged for a closer look

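Among the 10 genes, a single library lay far from the other 6 in the 2 members that were not detected. GluRIIA stood at 1.02 CPM (29 counts) in CC_5, against 0 to 0.437 CPM in the others. GluRIIB stood at 0.318 CPM (8 counts) in CC_4, against 0 counts in the others. The nominal rate of about 1 in 20 groups set apart by chance was not measured for genes with so few reads, and for GluRIIB the gap follows from the 0 counts in 6 libraries.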

How the results depend on the processing

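Calls changed with the gene length used and with the libraries left out. The log2 ratio of GluRIA over GluRIB was 0.23 without length adjustment, and that of Nmdar1 over Nmdar2 was 0.14 by coding length and 0.0188 without length adjustment, and none of these passed. The ratios ran from 1.08 to 1.19 and from 0.93 to 0.99 with each library left out. The share of KaiR1D among the ionotropic subunits was 52.0% by coding length, an alternative chosen after seeing the data, and 57.8 to 58.7% with each library left out. Without the 2 libraries most distant from the median of the first-named gene, r of GluRIA with GluRIB turned to -0.291, and r of VGlut with the neuron score (0.644), VGlut with the motor neuron score (0.907) and GluClalpha with the neuron score (0.889) no longer passed, at 5 libraries. With each library left out, r of VGlut with the neuron score ran from 0.649 to 0.884. Of the other alternatives to the correlations none changed a call at the unadjusted p. The number of members detected was 8 under all 4 other limits and with every library left out in turn. By the tagwise dispersion of edgeR the spread of VGlut and GluClalpha lay above 60.7 and 62.9% of all detected genes, against 73.2 and 73.6% by CV. The dispersion was not ranked among genes of similar level. Of 30 levels under other scalings 26 moved by less than 1 SD, the 4 others under totals without Arc1: GluRIA 49.6, Nmdar1 199, Nmdar2 196 and KaiR1D 649 CPM. No paired analysis was possible because all libraries belong to a single condition. Depth limits GluRIIA and GluRIIB, whose 0 to 29 and 0 to 8 counts per library compare with a floor of 3 counts, or 0.0885 to 0.142 CPM.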
